A study of Mus musculus with 4 samples.

Results

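MHC class II molecules are heterodimers of an alpha and a beta chain that present peptides to CD4 T cells. The classical pairs are HLA-DR, HLA-DP and HLA-DQ. The invariant chain, encoded by CD74, fills their groove and guides them to the endosome, where HLA-DM exchanges the last fragment of the invariant chain for peptide. CIITA, the class II transactivator, switches these genes on together through factors bound at their shared promoter boxes, and human T cells express class II mainly when activated. The genes described here are CD74, CIITA and 8 HLA genes of the class II region, 10 of the 58735 gene rows of the deposited count table, taken by gene symbol and, for the HLA genes, on chromosome 6.

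The counts came from 4 RNA sequencing libraries of Jurkat, an established human line from a T cell leukaemia. Of these, 2 were labelled MATR3 knockout, made with CRISPR-Cas9, and 2 were labelled wild-type, with no other treatment named for either group. Whether the knockout libraries came from 1 clone, and whether replicates were separate cultures, is not given in the labels, so the p-values below rest on differences among these 4 libraries that could be purely technical. MATR3 encodes matrin 3, a nuclear protein that binds RNA and DNA, and the question addressed is how its loss alters these transcripts.

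Total counts ranged from 15008554 to 17477643 per library. The MATR3 row did not follow the labels, with 42 and 61 reads in the libraries labelled knockout against 19 and 9 in wild-type. A second, overlapping MATR3 row held 2 and 2 reads in the libraries labelled knockout and 5 and 1 in wild-type, so the rows check nothing about the knockout, and every direction below is that of the libraries labelled knockout. Mitochondrial genes took 9.49% and 9.33% of counts in the libraries labelled knockout, against 5.31% and 4.92% in wild-type.

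CD74 stood far above every other member in the libraries labelled knockout, while CIITA did not pass the test and none of the class II chains that could be tested rose. CD74 (ENSG00000019582, chromosome 5, 150401637 to 150412929, as deposited, with no genome build named) had 1554 and 1532 reads in the libraries labelled knockout, against 8 and 12 in wild-type. This was 104.7 ± 1.92 CPM in the libraries labelled knockout and 0.606 ± 0.208 CPM in wild-type (CPM, TMM-scaled counts for a library of 1e6 reads; SD, n = 2 each). The groups lay far apart, and the replicates within each lay close together. By edgeR's quasi-likelihood test CD74 rose by 7.43 on the log2 scale (SE 0.169, adjusted p = 1.495e-52), a fold of 172. The 95% exact interval of the ratio of summed reads was 112.8 to 286, which covers counting error only. Of the 15294 genes tested, 145 had a larger fitted rise than CD74. Of these, 7 had 20 or more reads over the wild-type group, a cut equal to the wild-type total of CD74 itself.

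CIITA (ENSG00000179583, chromosome 16, 10866222 to 10943021) had 20 and 27 reads in the libraries labelled knockout, against 34 and 29 in wild-type. In CPM, CIITA was at 1.36 and 1.82 in the libraries labelled knockout, against 1.95 and 1.82 in wild-type, so replicate 2 of both groups was level. The test of CIITA gave -0.24 on the log2 scale (SE 0.387) with an adjusted p of 0.593 (edgeR quasi-likelihood test), and the 95% counting interval of the ratio was 0.565 to 1.25. The CIITA row overlaps DEXI on the opposite strand over 13570 bases. DEXI itself had 18 and 39 reads in the libraries labelled knockout and 122 and 122 in wild-type, and without a stated strand setting the reads of the pair cannot be told apart.

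**Figure D1:**
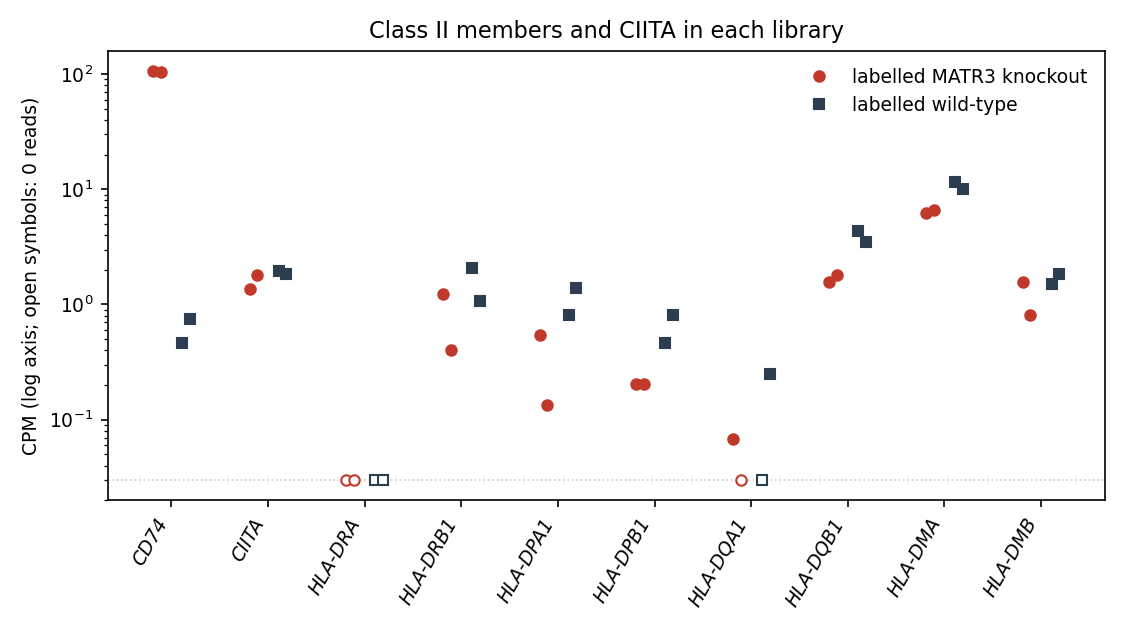
Normalised level (CPM, log axis) of the 10 members in each library; circles are the 2 libraries labelled MATR3 knockout, squares the 2 wild-type libraries, and open symbols on the dotted line mark 0 reads. CD74 is at 106 and 103.3 CPM in the libraries labelled knockout, HLA-DRA is at 0 in all 4 libraries, and the other HLA members lie at or below wild-type or overlap it.

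No reads were counted for HLA-DRA, the alpha chain of HLA-DR (ENSG00000204287, chromosome 6, 32439842 to 32445046), in any of the 4 libraries. A count of 0 allows up to 3 reads per library, or 0.205 and 0.202 CPM in the libraries labelled knockout and 0.172 and 0.188 CPM in wild-type. HLA-DRB1, its beta chain partner, had 18 and 6 reads in the libraries labelled knockout, against 36 and 17 in wild-type. These groups overlapped in CPM, and the replicates within each lay far apart. The log2 fold change of -0.95 (SE 0.481) did not pass the test (adjusted p = 0.0764, edgeR quasi-likelihood test), but passed it without knockout replicate 1 (adjusted p = 0.0256) or without wild-type replicate 2 (adjusted p = 0.0434).

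The HLA-DP and HLA-DQ chains were at low levels. HLA-DPA1, the DP alpha chain, had 8 and 2 reads in the libraries labelled knockout, against 14 and 22 in wild-type. It fell by 1.65 on the log2 scale (SE 0.609, adjusted p = 0.0139 by edgeR's quasi-likelihood test), but the call was lost without knockout replicate 2 (adjusted p = 0.318) or wild-type replicate 2 (adjusted p = 0.206) and with DESeq2 (adjusted p = 0.126). HLA-DPB1, the DP beta chain, had 3 and 3 reads in the libraries labelled knockout and 8 and 13 in wild-type, too few to be tested, and its row overlaps HLA-DPA1 on the opposite strand over 4850 bases. HLA-DQB1, the DQ beta chain, had 23 and 27 reads in the libraries labelled knockout, against 75 and 56 in wild-type, with no overlap of the groups. It fell by 1.21 on the log2 scale (SE 0.314, adjusted p = 0.000554, edgeR quasi-likelihood test), to 1.69 ± 0.178 CPM in the libraries labelled knockout, against 3.91 ± 0.557 CPM in wild-type (SD, n = 2 each). HLA-DQA1, the DQ alpha chain, had 1 and 0 reads in the libraries labelled knockout and 0 and 4 in wild-type, and was not tested.

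HLA-DM is the peptide editor of the pathway. Its alpha chain gene HLA-DMA (ENSG00000204257, chromosome 6, 32948613 to 32969094) had 92 and 99 reads in the libraries labelled knockout, against 201 and 160 in wild-type. The groups did not overlap, and HLA-DMA fell by 0.74 on the log2 scale (SE 0.195, adjusted p = 0.000666, edgeR quasi-likelihood test), to 6.48 ± 0.282 CPM in the libraries labelled knockout, against 10.8 ± 1.05 CPM in wild-type (SD, n = 2 each). The HLA-DMA row shares 435 bases with BRD2 on the other strand, a gene that rose by 0.45 on the log2 scale (SE 0.0697, adjusted p = 3.86e-08). HLA-DMB, the beta chain, had 23 and 12 reads in the libraries labelled knockout and 26 and 29 in wild-type. Its groups overlapped in CPM, and its log2 fold change of -0.47 (SE 0.434) did not pass the test (adjusted p = 0.337), with a counting interval of the ratio from 0.457 to 1.12.

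In all, 7 of the 10 members passed the filter on low counts, 1 was called higher and 3 lower, where 33.7% of all tested genes were called higher and 32.3% lower. A call as such was therefore common among all genes, and 4 calls of 7 set beside 66.0% called in either direction does not mark the members out. Their median log2 fold change was -0.74, against 0.02 over all genes tested, and the median of the 5 tested HLA members was -0.95. The 8 HLA members together held 168 and 149 reads in the libraries labelled knockout, against 360 and 301 in wild-type.

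The order of levels changed with CD74. On the TPM scale, which divides by the deposited gene length, the libraries labelled knockout had CD74 first at 90.8 ± 0.958 TPM, HLA-DMA next at 7.06 ± 0.362 TPM, and then HLA-DRB1 at 1.83 ± 1.29 TPM (SD, n = 2). In wild-type, HLA-DMA was first at 13.5 ± 0.803 TPM, then HLA-DRB1 at 4.004 ± 1.67 TPM and HLA-DQB1 at 2.52 ± 0.264 TPM (SD, n = 2). CD74 in wild-type, at 0.607 ± 0.230 TPM, lay among HLA-DPB1 at 0.729 ± 0.314 TPM and HLA-DPA1 at 0.606 ± 0.248 TPM, and these neighbours did not differ beyond their spread. HLA-DQB1 lay within the spread of HLA-DRB1 in both groups, whereas HLA-DMA stood clear of HLA-DRB1. HLA-DMB was at 0.704 ± 0.313 TPM in the libraries labelled knockout, within its spread of HLA-DQB1, and at 1.13 ± 0.201 TPM in wild-type, below HLA-DQB1. CIITA was at 0.212 ± 0.0446 TPM in the libraries labelled knockout and 0.288 ± 0.00311 TPM in wild-type. The summed TPM of the 8 HLA members was 11.8 and 10.0 in the libraries labelled knockout, against 23.9 and 21.2 in wild-type. CD74 was 7.72 and 9.001 times that sum in the libraries labelled knockout, against 0.0186 and 0.0363 times in wild-type.

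Of 11 further class II rows, 6 had no read in any library, namely HLA-DQA2, HLA-DQB2 and 4 pseudogenes (HLA-DRB6, HLA-DRB9, HLA-DPA2 and HLA-DPA3). HLA-DOA, the alpha chain of HLA-DO, an inhibitor of HLA-DM known from B cells, was the 1 row of these with enough reads to be tested. It had 34 and 41 reads in the libraries labelled knockout, against 205 and 167 in wild-type. HLA-DOA fell by 2.13 on the log2 scale (SE 0.228, adjusted p = 2.67e-13, edgeR quasi-likelihood test), to 2.54 ± 0.315 CPM in the libraries labelled knockout, against 11.1 ± 0.904 CPM in wild-type (SD, n = 2 each). HLA-DOB, its beta chain, had 4 and 2 reads in the libraries labelled knockout and 6 and 3 in wild-type. HLA-DRB5, a near copy of HLA-DRB1, had 8 and 5 reads in the libraries labelled knockout and 13 and 2 in wild-type. HLA-DPB2 had 1 read in knockout replicate 1, and HLA-DQB1-AS1 had 2 in wild-type replicate 1. Because HLA loci resemble each other and vary by allele, reads can be divided between copies or missed, and the effect on these counts was not tested.

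The lower HLA-D genes lay beside genes at much higher levels, among which TAP2 and BRD2 rose. Between the start of HLA-DRA and the end of HLA-DPB1, 7 genes other than the members were tested. Of these, 2 were higher and 2, HLA-DOA and TAP1, were lower, and the median log2 fold change was 0.05. TAP2, a subunit of the peptide transporter for class I, rose by 1.09 on the log2 scale to 62.4 and 59.7 CPM in the libraries labelled knockout, against 28.0 and 29.3 CPM in wild-type. BRD2, a chromatin reader, was the other rise. TAP1, the partner of TAP2, fell by 0.19 (adjusted p = 0.0247, edgeR quasi-likelihood test), a call lost without knockout replicate 1 (adjusted p = 0.398) or knockout replicate 2 (adjusted p = 0.112), and also with DESeq2 size factors, upper-quartile scaling, the DESeq2 Wald test or no expression filter. PSMB8 and PSMB9, immunoproteasome subunits, were at 0.05 and -0.11 without passing the test, PSMB8 passing it without wild-type replicate 1 (adjusted p = 0.00959). In the 1 Mb before HLA-DRA, 22 genes were higher and 7 lower of 52 tested, and in the 1 Mb after HLA-DPB1, 8 were higher and 7 lower of 23. The shares over all genes tested were 33.7% higher and 32.3% lower. Of 12 tested genes of the class I pathway, 7 were higher and 2 lower, and HLA-B and HLA-E rose by 2.90 and 1.54 on the log2 scale.

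**Figure D2:**
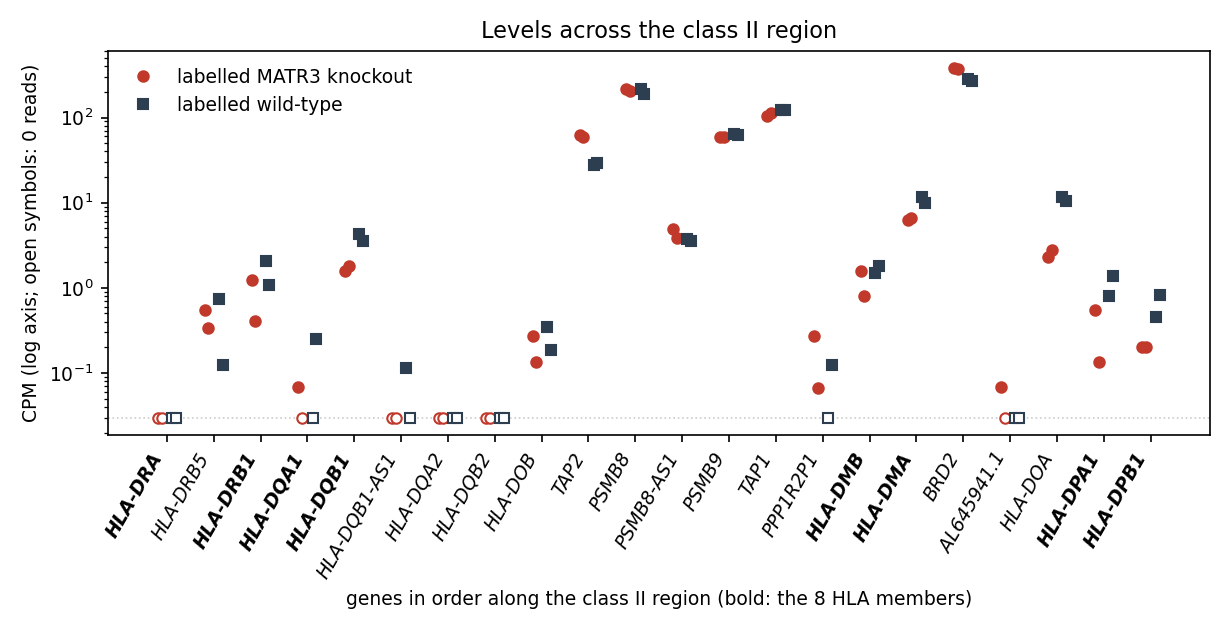
Normalised level (CPM, log axis) of genes in their order along the class II region of chromosome 6; circles are the 2 libraries labelled MATR3 knockout, squares the 2 wild-type libraries, open symbols 0 reads, and bold names the 8 HLA members. Rows with no reads are left out unless they are members or protein-coding HLA genes. TAP2, PSMB8, PSMB9, TAP1 and BRD2 lie at 28.0 CPM or more in every library, and every HLA-D gene lies at 11.8 CPM or less.

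Factors that bind the class II promoters were counted in all 4 libraries and moved in both directions. RFX5, RFXAP and RFXANK form the RFX complex on the X box, NFYA, NFYB and NFYC form the NF-Y trimer on the Y box, and CREB1 and ATF1 belong to the CREB family that binds beside RFX. Of these 8 genes, all tested, 4 were higher and 3 lower, beside 33.7% and 32.3% of all genes tested. Their median log2 fold change was 0.32. RFX5 was at 99.1 and 101.3 CPM in the libraries labelled knockout and at 87.8 and 93.5 CPM in wild-type. Its log2 fold change of 0.14 did not pass the test (adjusted p = 0.0937), but passed without wild-type replicate 2 (adjusted p = 0.0203) or with upper-quartile scaling (adjusted p = 0.0391). RFXAP rose by 0.72 (SE 0.165) and RFXANK fell by 0.33 (SE 0.0796) on the log2 scale. NFYA fell by 0.57 and NFYB rose by 0.50 on the log2 scale, the rise of NFYB missing the threshold without wild-type replicate 1 (adjusted p = 0.0556, edgeR quasi-likelihood test). NFYC fell by 0.19, a call lost without knockout replicate 1 (adjusted p = 0.466), knockout replicate 2 (adjusted p = 0.0797) or wild-type replicate 1 (adjusted p = 0.100). It was also lost with DESeq2 size factors, upper-quartile scaling, the DESeq2 Wald test or no expression filter (adjusted p of 0.0507, 0.0863, 0.117 and 0.121 in that order). CREB1 and ATF1 rose by 0.56 and 1.01 on the log2 scale.

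Of 17 genes that act on CIITA or its class I relative, 16 were tested. Among them, 6 were higher and 3 lower, beside 33.7% and 32.3% of all genes tested. Of the 6, PAX5 passed the filter on low counts only through the libraries labelled knockout and could not have been called lower. SPI1, the myeloid and B cell factor PU.1, which binds the CIITA promoter used in myeloid cells, was at 194 and 185.3 CPM in the libraries labelled knockout, against 2.01 and 0.817 CPM in wild-type. It rose by 7.04 on the log2 scale (SE 0.139, adjusted p = 8.61e-57, edgeR quasi-likelihood test), close to CD74 in size. IRF8, a partner of PU.1, fell by 3.29 on the log2 scale (SE 0.319), to 0.546 and 0.944 CPM in the libraries labelled knockout, against 6.66 and 8.10 CPM in wild-type. PAX5, a B lineage factor, had 53 and 32 reads in the libraries labelled knockout and 0 in wild-type, at least 32.0-fold higher with a floor of 3 reads over the group. ZBTB32, known as a repressor of CIITA during plasma cell differentiation, had 18 and 15 reads in the libraries labelled knockout against 73 and 70 in wild-type, and fell by 1.93 on the log2 scale.

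The interferon gamma arm, which induces CIITA in many cell types, moved in part. The receptor genes IFNGR1 and IFNGR2 rose by 0.98 and 0.54 on the log2 scale. IRF1, an interferon-induced factor that acts on the interferon-responsive CIITA promoter, was at 62.7 and 64.5 CPM in the libraries labelled knockout and 71.8 and 62.9 CPM in wild-type. IRF1 did not pass the test (log2 fold change -0.08, adjusted p = 0.399, edgeR quasi-likelihood test), nor did NLRC5, the class I transactivator (0.16, adjusted p = 0.158). With 1 wild-type library left out, IRF1 passed as lower without replicate 2 (adjusted p = 0.0307) and NLRC5 as higher without replicate 1 (adjusted p = 0.00236).

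Genes that process the invariant chain and carry class II went both ways, and cathepsins S and L changed most among them. Of 21 genes, 20 were tested, 10 were higher and 6 lower, beside 33.7% and 32.3% of all genes tested. Their median log2 fold change was 0.13. Of the 10, CTSL passed the filter on low counts only through the libraries labelled knockout and could not have been called lower. CTSS, the protease that makes the late cuts in the invariant chain of most antigen-presenting cells, had 2741 and 2904 reads in the libraries labelled knockout, against 36 and 46 in wild-type. CTSS rose by 6.28 on the log2 scale (SE 0.122, adjusted p = 4.1e-57, edgeR quasi-likelihood test). CTSL, which does this in the mouse thymic epithelium, had 270 and 317 reads in the libraries labelled knockout and 6 and 1 in wild-type, and rose by 6.52 on the log2 scale (SE 0.325, adjusted p = 3.04e-30, edgeR quasi-likelihood test). CTSV, a close relative of CTSL used in the human thymus, fell by 1.45 on the log2 scale, to 3.96 and 3.10 CPM in the libraries labelled knockout, against 8.27 and 11.1 CPM in wild-type.

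LGMN, an asparaginyl endopeptidase that starts invariant chain breakdown, fell by 0.72 and SPPL2A, which clears its membrane fragment, rose by 0.40 on the log2 scale. The SPPL2A call was lost without knockout replicate 1 (adjusted p = 0.0553) or knockout replicate 2 (adjusted p = 0.114). IFI30, a lysosomal thiol reductase of antigen-presenting cells, had 0 and 1 reads in the libraries labelled knockout and 1 and 5 in wild-type. MARCH1, a ubiquitin ligase that removes class II from the surface, rose by 2.02 on the log2 scale (SE 0.350), with 62 and 64 reads in the libraries labelled knockout against 26 and 9 in wild-type. Its relative MARCH8 fell by 0.65. CANX, the chaperone calnexin, and CD63, a tetraspanin of late endosomes, rose by 0.90 and 0.94 on the log2 scale.

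**Figure D3:**
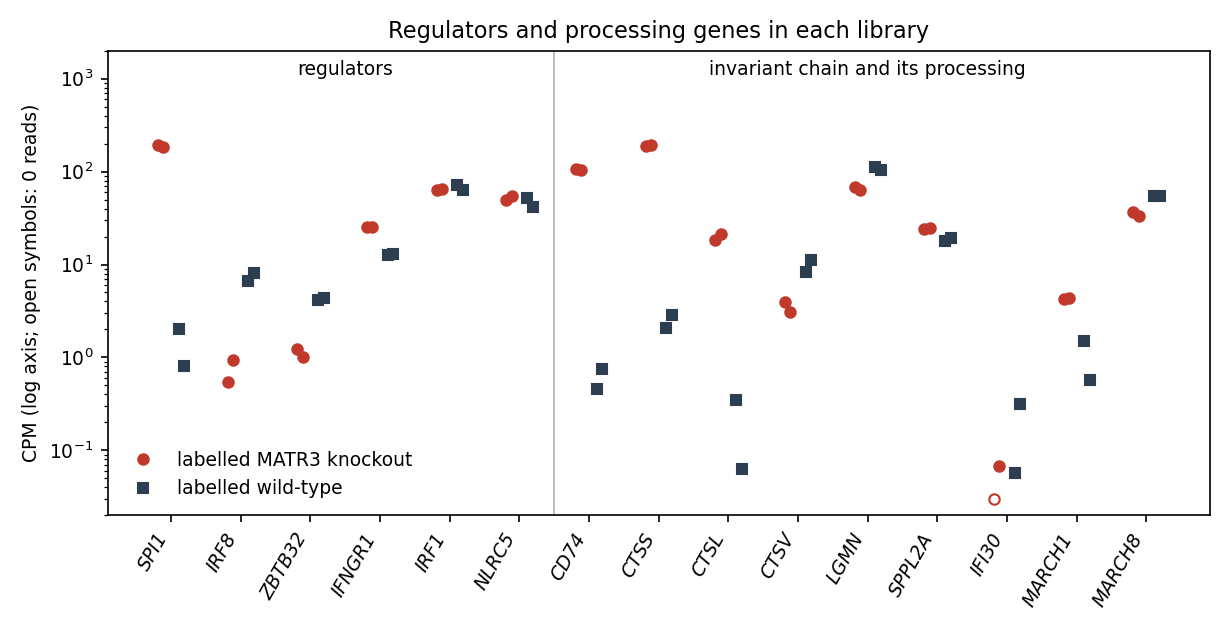
Normalised level (CPM, log axis) of regulators (left of the line) and of CD74 with its processing and traffic genes (right of the line); circles are the 2 libraries labelled MATR3 knockout, squares the 2 wild-type libraries, and the open symbol 0 reads. SPI1, CD74, CTSS and CTSL stand far above wild-type in the libraries labelled knockout, whereas IRF1 and NLRC5 overlap it.

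**Figure D4:**
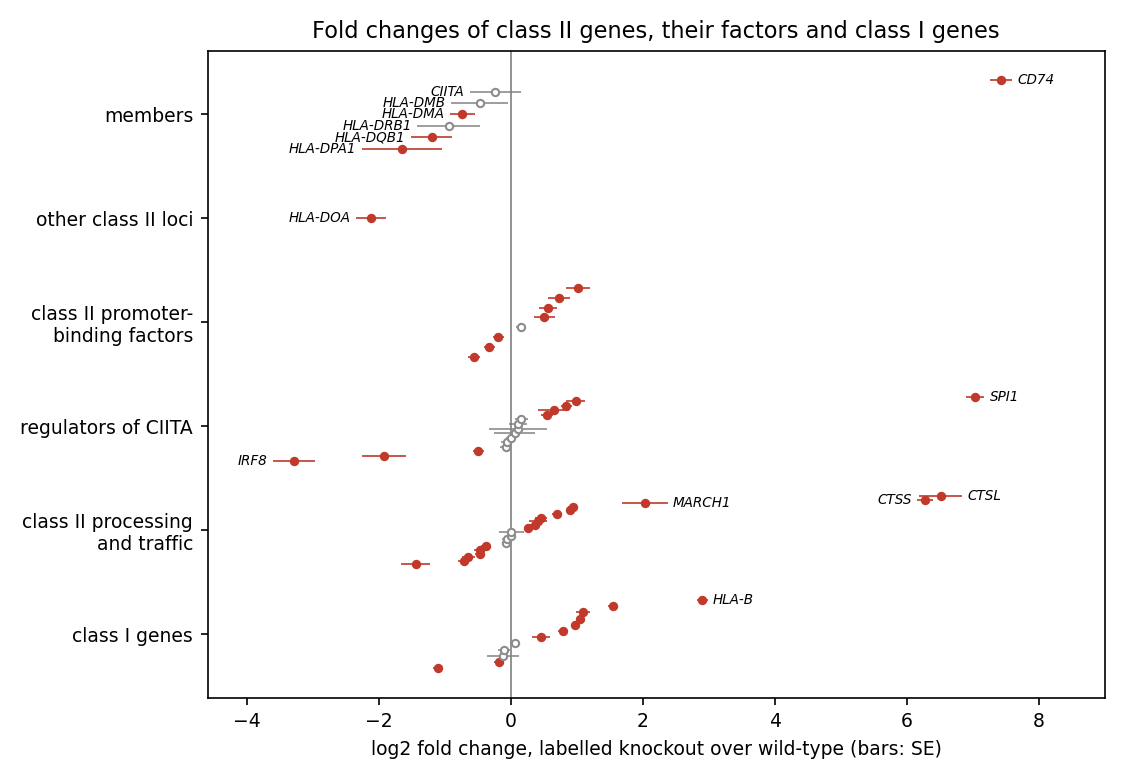
Fitted log2 fold change (libraries labelled MATR3 knockout over wild-type) of each tested gene of 6 lists, with bars for SE; filled points passed an adjusted p of 0.05 and open points did not. CD74 is at 7.43 among the members and the others lie below 0. PAX5 is left out because it had 0 reads in wild-type.

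CD74 and marker genes of other cell types moved in the same libraries. Over all genes tested, 33.7% were higher and 32.3% lower. Of 12 myeloid markers, 11 were tested and all 11 were higher. Their summed level was 5466 and 5359 CPM in the libraries labelled knockout, against 11.4 and 12.7 CPM in wild-type. Most of this sum was MPO, at 4972 and 4867 CPM in the libraries labelled knockout, against 8.50 and 9.36 CPM in wild-type. In wild-type, ELANE and CSF3R had 0 reads, CD33 had 5 and 2, and LYZ had 1 and 1. Such genes passed the filter on low counts only through the libraries labelled knockout and could not have been called lower. The count of 11 was therefore set in part by the filter. CD14, a monocyte marker, was not tested, with 6 and 4 reads in the libraries labelled knockout and 8 and 5 in wild-type. Dendritic cell markers were 2 higher and 4 lower of 7 tested, with CLEC10A, FCER1A and CLEC4C at 0 in all libraries. CLEC9A, called higher with 0 reads in wild-type, also passed the filter only through the libraries labelled knockout. The sum of dendritic cell markers was 62.6 and 66.9 CPM in the libraries labelled knockout, against 186 and 178.3 CPM in wild-type. B cell markers were 2 higher and 2 lower of 4 tested, with MS4A1 and CD22 at 0 in all libraries. The 2 called higher, PAX5 and BLNK, passed the filter only through the libraries labelled knockout and could not have been called lower. PAX5 had 0 reads in wild-type, and BLNK had 0 and 2. SPIB, called lower, had 1 and 3 reads in the libraries labelled knockout and passed only through wild-type. The sum of B cell markers was 10.6 and 9.71 CPM in the libraries labelled knockout, against 17.7 and 15.9 CPM in wild-type. T cell markers were lower for 13 of 14, with a sum of 1478 and 1440 CPM in the libraries labelled knockout, against 3660 and 3406 CPM in wild-type. Epithelial markers were higher for 3 of 3 tested (KRT8, KRT18 and CLDN4), with EPCAM and KRT19 at 0 in all libraries. CDH1 had 1 read, in wild-type replicate 2. The sum of epithelial markers was 123.5 and 125.5 CPM in the libraries labelled knockout, against 13.9 and 11.5 CPM in wild-type. In the libraries labelled knockout, most of this sum was 2 keratins, KRT18 at 87.3 and 85.3 CPM and KRT8 at 35.0 and 37.9 CPM. The part of these marker genes in the level of CD74 and of the HLA genes was not tested. In bulk RNA, other numbers of cells of a type and another level per cell cannot be told apart.

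The genes nearest to CD74 in level over the 4 libraries, by Euclidean distance of log2 CPM among 12755 other protein-coding genes, were AZU1, TSPO, TRIB1, PIWIL4 and CR1 at distances of 0.974 to 1.14. AZU1, a granule protein of neutrophil precursors, was at 140.6 and 154.5 CPM in the libraries labelled knockout and 0.402 and 1.26 CPM in wild-type. The 5 nearest to HLA-DMA were DAGLA, PIGW, CLCN2, F2R and ZNF18 at distances of 0.110 to 0.199. DAGLA, a lipase gene, was at 6.14 and 6.41 CPM in the libraries labelled knockout and 10.9 and 10.3 CPM in wild-type.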

How the data were processed

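The authors deposited 1 table of raw read counts per gene for 4 libraries, with gene lengths, symbols and coordinates. The tools listed, per the submitters' processing notes, are featureCounts 1.5.0-p3, HISAT2 2.0.5 and CASAVA 1.8. The sources used here do not say what each did, nor the genome build, the strand setting or the handling of reads with several matches. Although the samples are labelled as mouse, the rows carry human Ensembl identifiers. The symbols of MARCH1 and MARCH8 were deposited as dates and were matched by identifier and description.

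Counts were tested with edgeR 4.0.16 (R 4.3.3): TMM scaling (0.978 to 1.04), the default filter (10 counts minimum, 15 in total), a quasi-likelihood test (two-sided) between the groups, and Benjamini-Hochberg adjustment over 15294 genes at 0.05. CPM use TMM-scaled totals. SE was computed as the size of the log2 fold change over the square root of the test's F statistic. Where a group has few reads it can be smaller than counting error, as for CD74 in wild-type. TPM were computed from counts and deposited lengths. Exact 95% intervals and floors of 3 reads cover counting error only. The test was first checked on simulated counts.

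The members and gene lists were chosen with earlier results of these data known, so no list was tested. All members, other class II rows and promoter-binding factors are named, with up to 6 of the most changed genes that passed the test in the other lists and the 5 genes nearest in level to members at 10 CPM or more; some further list genes, the MIF list and the neighbours of CD74 and CIITA were chosen after values were seen. Some genes of the lists count in the totals but are not reported here by name. Alternatives were other scalings, DESeq2 1.42.0, limma 3.58.1 voom, other filters, protein-coding genes only, summed scaffold rows, a replicate block and leaving out each library.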

Additional observations from a re-analysis of the deposited data

How the results depend on the processing

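Of 66 named genes tested, 52 kept their direction and their side of the threshold under all alternatives in which they were tested, 8 lost a call and 6 gained one under at least 1, and 3 changed sign. None of the 7 tested members changed sign. The 3 were uncalled genes that turned with 1 wild-type library left out: PSMB8 was at 0.15 without replicate 1 and -0.039 without replicate 2, IRF1 at 0.035 and -0.19, and NLRC5 at 0.34 and -0.0042. CD74 ranged from 7.12 to 7.79 on the log2 scale when each library was left out in turn. HLA-DPA1 no longer passed with DESeq2 (-1.67, adjusted p = 0.126) or with no expression filter (-1.65, adjusted p = 0.0654), was not tested under a filter of 1 CPM, and ranged from -2.94 to -0.98 with 1 library left out. HLA-DRB1 ranged from -1.94 to -0.36 in the same way. Counts over all genes ranged from 4127 to 5420 higher and from 3891 to 5106 lower. No scaling moved the median of all genes by more than 0.05 on the log2 scale. With the replicate number as a block, 5149 genes were higher and 4923 lower, and CD74 stayed at 7.43; the labels do not say that the numbers pair libraries, and the differences between replicates correlated by 0.03 across the 2 groups. The causes of these changes were not tested. HLA-DRA, HLA-DQA1 and HLA-DPB1 had at most 13 reads in any library and were not tested under the default filter.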

Other observations

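CD74 is also the cell surface receptor of the cytokine MIF, together with CD44 and the chemokine receptors CXCR2, CXCR4 and ACKR3. CD44 had 433 and 429 reads in the libraries labelled knockout, against 5 and 0 in wild-type, and rose by 7.53 on the log2 scale (SE 0.318, adjusted p = 1.05e-34, edgeR quasi-likelihood test). CXCR2 had 40 and 21 reads in the libraries labelled knockout and 1 and 0 in wild-type. CXCR4 fell by 0.68 on the log2 scale, to 151.7 ± 3.01 CPM in the libraries labelled knockout, against 242.7 ± 12.5 CPM in wild-type (SD, n = 2 each). ACKR3 was at -0.49 without passing the test (adjusted p = 0.0623), but passed without wild-type replicate 2 (adjusted p = 0.0437). MIF had 16 and 15 reads in the libraries labelled knockout and 42 and 34 in wild-type, and overlaps MIF-AS1 on the opposite strand over 802 bases. Its log2 fold change of -1.11 (adjusted p = 0.0134) lost its call without knockout replicate 1 (adjusted p = 0.0659), knockout replicate 2 (adjusted p = 0.0912) or wild-type replicate 1 (adjusted p = 0.0844), and with the DESeq2 Wald test (adjusted p = 0.0919). These genes were chosen after their values were seen.

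Of 9 genes for receptors of class II and for costimulation of T cells, 5 were tested. Of the 5, 3 were higher, beside 33.7% of all genes tested, and 2 did not pass the test (CD274 and TNFSF4). CD4, the coreceptor that binds class II, had 8188 and 8067 reads in the libraries labelled knockout against 938 and 798 in wild-type, whereas LAG3, an inhibitory receptor for class II, had 5 and 3 reads in the libraries labelled knockout and 1 and 4 in wild-type. ICOSLG, the ligand of ICOS, had 300 and 283 reads in the libraries labelled knockout against 24 and 23 in wild-type. CD40, a receptor on antigen-presenting cells that binds a T cell ligand, had 14 and 15 reads in the libraries labelled knockout against 0 in wild-type. Of the 3 called higher, CD40 passed the filter on low counts only through the libraries labelled knockout and could not have been called lower. CD274, the ligand PD-L1, had 22 and 12 reads in the libraries labelled knockout and 25 and 36 in wild-type, and TNFSF4 had 8 and 11 reads in the libraries labelled knockout and 6 and 11 in wild-type. Among the genes with too few reads to be tested, CD80 had 0 reads in both libraries labelled knockout and 3 and 4 in wild-type, and CD86 had 18 and 7 reads in the libraries labelled knockout and 2 and 0 in wild-type. FCRL6 had 1 read, in knockout replicate 2.

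Within 1 Mb of CD74, 16 of 26 tested genes were higher and 2 lower, with a median log2 fold change of 0.40. Among all genes tested, 33.7% were higher and 32.3% lower. CSF1R, the receptor of a macrophage growth factor, was the largest rise there at 5.97, and ANXA6 the largest fall at -1.32. With 2 and 3 reads in wild-type, CSF1R passed the filter on low counts only through the libraries labelled knockout. Within 1 Mb of CIITA, 8 of 14 tested genes were higher and 4 lower. SOCS1, an inhibitor of interferon signalling, fell by 1.41 on the log2 scale, and DEXI, which shares its locus with CIITA, by 1.92.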
